A study of Homo sapiens with 6 samples.

Results

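Expressed ZNF zinc finger genes were examined in LX-2 cells, an immortalised human hepatic stellate cell line. The members are the 160 genes with an Ensembl identifier, a Gene Ontology annotation, a symbol made of ZNF and a number with at most 1 closing letter, and a mean of at least 3 FPKM (fragments scaled to gene length and library size) over all 6 libraries. They were 160 of 488 such ZNF genes at any level and of 60780 rows in the gene table. The other 328 had a mean under 3 FPKM. The members were thus chosen by their measured mean FPKM over both groups, and their levels are given as a description.

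The study asked how medium from colorectal tumor cells changes gene expression in stellate cells when the tumor cells overexpress FGFBP1, a secreted protein that binds and carries fibroblast growth factors. For 24 h the LX-2 cells received medium from HCT116, a human colorectal carcinoma cell line. Its cells carried either the lentiviral vector alone (Vector-CM, n = 3) or the vector with FGFBP1 (FGFBP1-CM, n = 3), and all 6 libraries came from the same LX-2 line. No label says that the replicates were separate cultures, so the p-values measure the spread between these libraries, which may be technical.

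ZNF proteins mostly carry arrays of C2H2 zinc fingers, in which a pair of cysteines and a pair of histidines hold a zinc ion so that the finger can contact DNA. Many of them also carry a KRAB box, a repression domain that binds TRIM28 (KAP1), which in turn brings the histone methyltransferase SETDB1 and HP1 proteins and silences chromatin, much of it at transposable elements. The genes of KRAB proteins lie largely in clusters on chromosome 19. A smaller set carries a SCAN box, through which the proteins pair with each other, and some ZNF proteins act in RNA metabolism or on ribosomes rather than on DNA.

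The level of the members ran from 3.01 to 47.3 FPKM, with a median of 4.99 FPKM. The mean was under 5 FPKM for 80 of them and at least 10 FPKM for 22. Translations of the longest GENCODE coding transcript held a KRAB box in 78 members and none in 82, and a SCAN box in 9, of which 6 also held a KRAB box. The median number of C2H2 finger patterns was 9.5 and the highest 35, and 4 members (ZNF185, ZNF330, ZNF365 and ZNF703) held no match to the pattern. On chromosome 19 lay 56 members, and 43 of the 78 KRAB members were there. Of the annotated terms, metal ion binding covered all 160 members against 22.6% of tested genes with a term, and DNA binding covered 89.4% against 13.3%.

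Promoters are shown for 5 members described below: ZNF292, which passed the test, ZNF189 and ZNF510, with the highest log2 fold changes without overlap, ZNF302, as a KRAB gene of chromosome 19 whose window holds all 3 motifs, and ZNF185, with the lowest. They are given so that their start regions can be set beside the values below. Each sequence is RefSeq (GRCh38.p14), 5′ to 3′ on the strand of the gene, from 250 bases before to 50 bases after the annotated start. Capitals mark matches on either strand to a GC box (GGGCGG), to the core of the EGR1 site (GTGGGCG) or to the ETS core (CCGGAAG), and where matches overlap they run on as 1 block. ZNF292, chr6:87155315-87155614, plus strand, held 3 GC boxes. ZNF189, chr9:101398601-101398900, plus strand, held 2. ZNF510, chr9:96778038-96778337, minus strand, held no match. ZNF302, chr19:34677428-34677727, plus strand, held an ETS core and an EGR1 core that overlaps a GC box. ZNF185, chrX:152914182-152914481, plus strand, held no match.
ZNF292: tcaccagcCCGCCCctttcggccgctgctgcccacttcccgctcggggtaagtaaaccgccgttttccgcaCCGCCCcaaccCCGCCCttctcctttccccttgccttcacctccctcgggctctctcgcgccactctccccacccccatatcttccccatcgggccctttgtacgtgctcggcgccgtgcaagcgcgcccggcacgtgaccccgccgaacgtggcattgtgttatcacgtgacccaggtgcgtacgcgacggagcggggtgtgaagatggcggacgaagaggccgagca
ZNF189: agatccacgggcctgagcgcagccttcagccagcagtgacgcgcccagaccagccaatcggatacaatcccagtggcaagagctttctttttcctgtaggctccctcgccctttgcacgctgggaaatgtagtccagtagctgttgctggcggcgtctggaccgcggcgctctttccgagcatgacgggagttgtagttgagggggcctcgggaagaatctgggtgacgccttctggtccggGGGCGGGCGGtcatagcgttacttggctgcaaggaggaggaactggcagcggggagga
ZNF510: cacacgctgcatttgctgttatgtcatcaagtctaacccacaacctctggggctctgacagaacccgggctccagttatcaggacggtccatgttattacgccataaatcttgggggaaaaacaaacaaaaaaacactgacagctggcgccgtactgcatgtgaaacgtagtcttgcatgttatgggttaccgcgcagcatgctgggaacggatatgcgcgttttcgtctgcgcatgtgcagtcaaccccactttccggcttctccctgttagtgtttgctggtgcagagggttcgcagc
ZNF302: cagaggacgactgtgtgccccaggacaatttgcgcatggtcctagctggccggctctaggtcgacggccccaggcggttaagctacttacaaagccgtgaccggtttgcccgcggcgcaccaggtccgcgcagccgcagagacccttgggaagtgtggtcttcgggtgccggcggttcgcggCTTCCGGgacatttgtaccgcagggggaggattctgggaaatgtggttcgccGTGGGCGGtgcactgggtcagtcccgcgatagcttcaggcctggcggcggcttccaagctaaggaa
ZNF185: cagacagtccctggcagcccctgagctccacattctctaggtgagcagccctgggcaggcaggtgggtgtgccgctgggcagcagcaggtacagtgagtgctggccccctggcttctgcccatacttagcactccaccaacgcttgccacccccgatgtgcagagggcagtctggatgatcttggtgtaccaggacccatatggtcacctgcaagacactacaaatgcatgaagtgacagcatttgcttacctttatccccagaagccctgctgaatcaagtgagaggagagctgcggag

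A promoter was matched for 143 of the 160 members. Their windows had a median GC content of 61.7% and a median of 22 CpG dinucleotides, against 58.7% and 14 over the 35116 promoters of the RefSeq table. The GC box was in 68.5% of the member windows and in 45% of all windows of the same length. The ETS core was in 39.2% and 10.3%, the EGR1 core in 18.9% and 9.52%, and the letters TATAAA in 2.8% and 11.5%. The members were chosen by expression, while the RefSeq promoters were not limited to expressed genes, so the sets are unlike. Shares over the tested genes alone were not taken. Among the 20 matched members that were higher in FGFBP1-CM at an unadjusted p under 0.05, 4 windows held the EGR1 core, 5 the ETS core and 12 the GC box. Of the 6 matched members that were lower, 1, 1 and 5 did. These matches describe letters in a window and are no evidence of binding.

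Total counts ranged from 14003780 to 18508113 per library, and the members took 0.680% to 0.746% of them, with 95 to 5783 counts per member and library. Of 11 stellate and fibroblast markers, 9 were at 1 FPKM or more in every library, VIM, TIMP1 and SPARC the highest, while LRAT was at 0 FPKM and DES near 0. Their summed level was 836 to 900.0 FPKM in Vector-CM and 664 to 757 FPKM in FGFBP1-CM, and the part of this difference in the results below was not tested. None of 10 epithelial markers, the cell type of HCT116, reached 1 FPKM, and their summed level was 0.539 to 0.815 FPKM with no gap between the groups. Within FGFBP1-CM, replicate 1 differed most from the other 2 libraries. Of the 160 members, 98 had replicate 1 as the FGFBP1-CM library farthest from the Vector-CM mean, against 24 for replicate 2 and 38 for replicate 3, and values without it are given for the named members at both ends.

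A single ZNF gene passed the test between the groups. ZNF292 rose in FGFBP1-CM, and no member fell. In bulk RNA, less RNA of a gene per cell and fewer cells that express it cannot be told apart. This was 0.625% of the 160 members, all of which were tested. Of all 16707 tested genes 0.12% passed, 0.0539% higher and 0.0658% lower (edgeR quasi-likelihood test, Benjamini-Hochberg adjusted p under 0.05 over all tested genes). At an unadjusted p under 0.05 edgeR had 7 members lower. DESeq2 called 9 members at an adjusted p under 0.05, 8 higher and 1 lower (ZNF185), out of 616 calls over all 16707 tested genes. At the same threshold limma on log2(FPKM + 1) called 0 members and 1 of all tested genes. In most of the other members the log2 fold change was small. The largest absolute log2 fold change of a member was 0.77, none of the members differed 2-fold, and 129 of 160 had an absolute log2 fold change under 0.2. The median standard error was 0.0920 on the log2 scale.

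ZNF292 encodes a large nuclear C2H2 protein in which mutations cause a neurodevelopmental disorder. The gene (ENSG00000188994) lies at chr6:87152833-87264196, plus strand, with 15 exon blocks in GENCODE 29 (GRCh38), of which 132 bp are shared with AL139274.2 on the opposite strand. The RefSeq start used for the promoter window above lies inside this span and is not the GENCODE start. The level of ZNF292 was 86.5, 75.7 and 81.5 CPM (counts scaled to library size) in the Vector-CM libraries (replicates in order, as in all such sentences) and 114, 104 and 105 CPM in the FGFBP1-CM libraries. All 3 FGFBP1-CM libraries lay above all 3 Vector-CM libraries. The group means were 81.2 ± 5.40 and 108 ± 5.69 CPM (SD, n = 3). The log2 fold change was 0.41 with an SE of 0.0709 (adjusted p = 0.0494, edgeR), or 1.33-fold. The transcript has a GC content of 36.5%, and with the trend on GC content and length removed the log2 fold change was 0.34 (adjusted p = 0.0472, edgeR). The call passed in 10 of 16 alternative settings and was lost without any 1 Vector-CM library, with an adjusted p of 0.0763, 0.176 and 0.242 in edgeR without replicates 1, 2 and 3. Without FGFBP1-CM replicate 1 it held, at 0.37 (adjusted p = 0.0282, edgeR).

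Below that threshold the members leaned to higher levels in FGFBP1-CM. At an unadjusted p under 0.05, 23 members (14.4%) were higher and 7 (4.38%) were lower, where 11.1% and 10.7% of all tested genes were. In 31 members (19.4%) all FGFBP1-CM libraries lay above all Vector-CM libraries, against 12.8% of tested genes, and in 10 (6.25%) all lay below, against 13.2%. The log2 fold change was above 0 in 106 members (66.2%) and in 50.7% of tested genes. The shift in level was small. The median log2 fold change was 0.04 over the members and 0.003 over all tested genes. At an adjusted p under 0.1, 12 members were higher (7.5%, against 2.97% of tested genes) and 2 lower (1.25%, against 2.6%). The count of lower members depended on single libraries. Without FGFBP1-CM replicate 1, 25 members were higher and 2 lower at the same unadjusted threshold (15.6% and 1.25%, against 7.73% and 6.91% of tested genes). Without Vector-CM replicate 3, 17 were higher and 2 lower (10.6% and 1.25%, against 7.26% and 6.96%). With library size in place of TMM scaling, which moved the median of all tested genes to 0.04, the split was 32 higher and 2 lower (20% and 1.25%, against 14.1% and 7.70%).

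**Figure D1:**
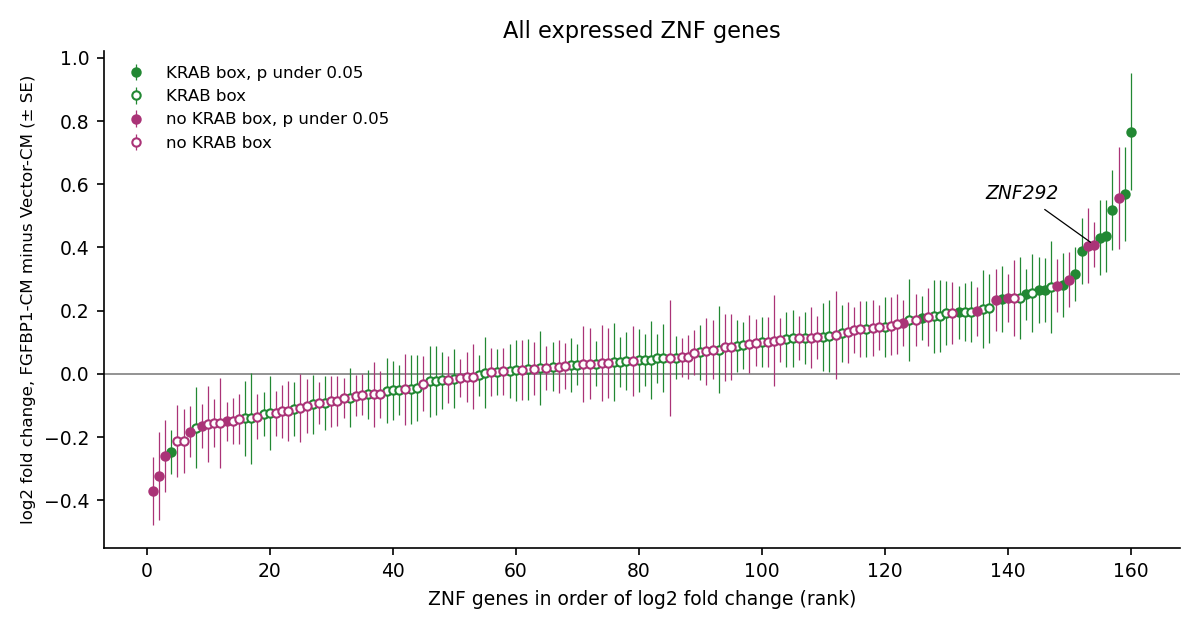
Log2 fold change (FGFBP1-CM minus Vector-CM, edgeR) of the 160 expressed ZNF genes in order, with bars of 1 SE. Filled points have an unadjusted p under 0.05, green points have a KRAB box, and ZNF292, at 0.41, is the member past the adjusted threshold. Most filled points lie at the upper end, 23 above 0 and 7 below.

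The highest log2 fold change belonged to ZNF189, a KRAB gene on chromosome 9 (ENSG00000136870, chr9:101398873-101410660, plus strand, 5 exon blocks). Its level was 13.1, 14.8 and 11.1 CPM in Vector-CM and 30.1, 18.1 and 17.7 CPM in FGFBP1-CM. The groups did not overlap, which was a condition for naming the members at this end. Replicate 1 stood well above the other FGFBP1-CM libraries. The log2 fold change was 0.77 (SE 0.185; adjusted p = 0.0680, edgeR) and 0.47 without that replicate. ZNF510, another KRAB gene of chromosome 9 (ENSG00000081386, chr9:96755865-96778129, minus strand, 6 exon blocks), had the same shape, with 26.6, 27.6 and 23.8 CPM in Vector-CM and 50.6, 32.9 and 31.8 CPM in FGFBP1-CM. By the same condition its groups did not overlap either, and replicate 1 was highest. Its log2 fold change was 0.57 (SE 0.149; adjusted p = 0.0780, edgeR) and 0.32 without FGFBP1-CM replicate 1.

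Of the 8 members with the highest log2 fold change among those with an unadjusted p under 0.05 and no overlap between groups, 4 were KRAB genes on chromosome 19. ZNF45 (ENSG00000124459, chr19:43912629-43935278, minus strand) was at 15.3, 15.8 and 18.0 CPM in Vector-CM and 28.1, 19.9 and 22 CPM in FGFBP1-CM. ZNF302 (ENSG00000089335, chr19:34677639-34686397, plus strand) was at 18.9, 17.4 and 17.9 CPM in Vector-CM and 28.7, 23.7 and 20.9 CPM in FGFBP1-CM. By that choice the groups did not overlap in either gene, and FGFBP1-CM replicate 1 was the highest library in both. The log2 fold changes were 0.52 (adjusted p = 0.0680, edgeR) for ZNF45 and 0.44 (adjusted p = 0.0780, edgeR) for ZNF302, or 0.36 and 0.30 without that replicate. ZNF441 was at 16.3, 11.7 and 13.1 CPM against 17.9, 19.3 and 18.7 CPM, where the FGFBP1-CM libraries lay close together and the spread was in Vector-CM. ZNF761, which shares 36 bp of exon with TPM3P9 on the same strand, was at 16.7, 14.7 and 15.6 CPM against 23.0, 19.7 and 19 CPM. Their log2 fold changes were 0.43 and 0.39 (adjusted p = 0.0859 and 0.0818, edgeR), or 0.46 and 0.30 without FGFBP1-CM replicate 1.

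ZNF365 was the other gene among these 8 without a KRAB box besides ZNF292. It has been linked to genome stability, and its symbol covers a protein with no match to the finger pattern used here. The level was 13.2, 15.8 and 15.0 CPM in Vector-CM and 22.2, 16.9 and 18.8 CPM in FGFBP1-CM, without overlap by the rule for these 8. The log2 fold change was 0.41 (adjusted p = 0.0919, edgeR), or 0.30 without FGFBP1-CM replicate 1. Its exons share 1669 bp with AC024598.1 on the same strand, so reads of the overlap cannot be assigned to one of them with certainty.

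The members at the lower end were mostly genes without a KRAB box, and none passed the adjusted threshold. ZNF185 encodes a LIM domain protein associated with the actin cytoskeleton rather than a C2H2 factor (ENSG00000147394, chrX:152914442-152973480, plus strand, 25 exon blocks). It was at 183, 192 and 182 CPM in Vector-CM and 123, 177 and 130.5 CPM in FGFBP1-CM. The 3 FGFBP1-CM libraries lay below the Vector-CM libraries, but replicate 2 was within a few CPM of them. The log2 fold change was -0.37 (SE 0.109; adjusted p = 0.0943, edgeR), and -0.27 without FGFBP1-CM replicate 1 and -0.55 without replicate 2, where it passed (adjusted p = 0.00421, edgeR).

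ZNF496, which holds both a SCAN and a KRAB box and binds the histone methyltransferase NSD1, was at 90.1, 92.5 and 92.4 CPM in Vector-CM and 71.5, 83.0 and 77.1 CPM in FGFBP1-CM. Its groups did not overlap, and the log2 fold change was -0.25 (adjusted p = 0.0877, edgeR). ZNF385A, a zinc finger protein that binds double-stranded RNA and p53, was at 11.3, 11.6 and 11.5 CPM against 8.55, 10.1 and 10.2 CPM, which gave -0.26 on the log2 scale (adjusted p = 0.207, edgeR). The remaining 3 members chosen at this end were ZNF367 (-0.18), ZNF217 (-0.16) and ZNF592 (-0.15), with adjusted p of 0.204, 0.190 and 0.185 in edgeR. Without FGFBP1-CM replicate 1 the values were -0.09 for ZNF367, -0.10 for ZNF217 and -0.12 for ZNF592, and -0.19 for ZNF496 and -0.18 for ZNF385A. ZNF217 is a corepressor gene amplified in breast cancers, and ZNF592 acts in a chromatin complex with ZMYND8 and ZNF687. By the rule that chose these 6 genes, each FGFBP1-CM library lay below each Vector-CM library. In all 7 members lower at the unadjusted threshold replicate 1 was the FGFBP1-CM library farthest from the Vector-CM mean.

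**Figure D2:**
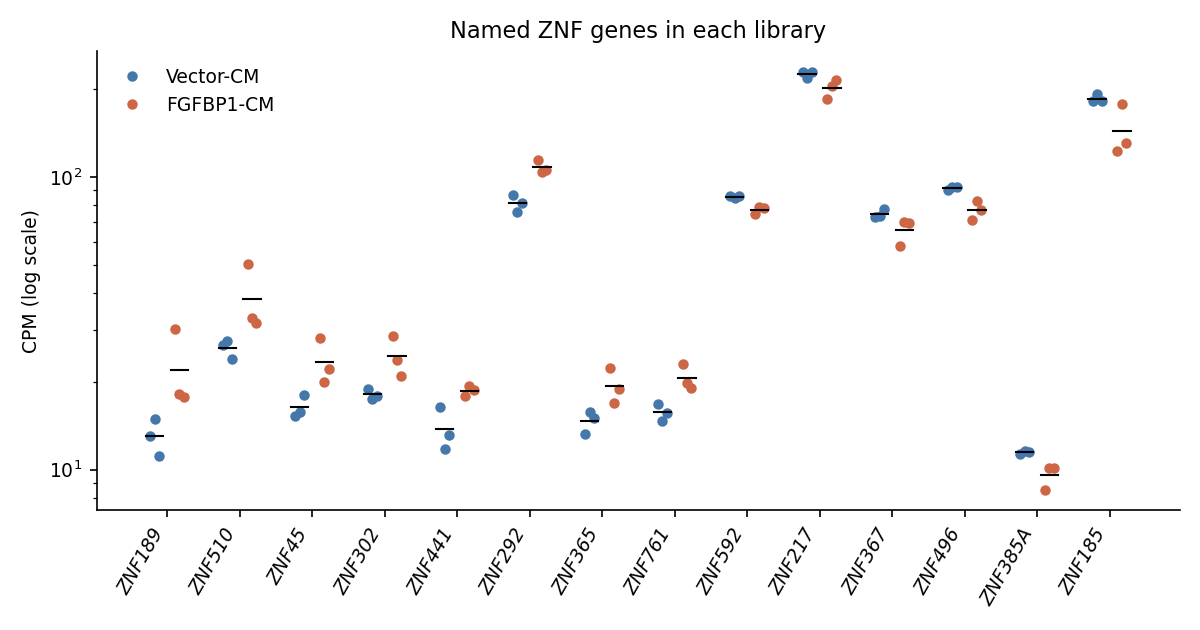
CPM (log axis) of the 8 members highest and the 6 lowest by log2 fold change among those with an unadjusted p under 0.05 and no overlap between groups, in order of log2 fold change. Each point is 1 library, n = 3 per group, and bars are group means. In ZNF189 and ZNF510 replicate 1 of FGFBP1-CM stands apart at 30.1 and 50.6 CPM.

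The most abundant members gave both directions. ZNF664 was the highest by mean FPKM, with 47.0, 46.8 and 47.1 FPKM in Vector-CM and 49.3, 45.4 and 48.4 FPKM in FGFBP1-CM. The groups overlapped, and its log2 fold change on counts was -0.01 (SE 0.0598). ZNF622, which acts in maturation of the large ribosomal subunit, was at 35.2, 35.2 and 35.6 FPKM against 44.6, 37.2 and 39.4 FPKM. Its groups did not overlap, and the log2 fold change was 0.16 (adjusted p = 0.220, edgeR), or 0.10 without FGFBP1-CM replicate 1. ZNF217 and ZNF185 followed by level, at means of 34.5 and 34.0 FPKM. ZNF24, a SCAN gene known as a repressor of VEGFA, was at a mean of 27.8 FPKM with overlapping groups and -0.12 on the log2 scale (adjusted p = 0.438, edgeR), or -0.04 without FGFBP1-CM replicate 1 and -0.05 without Vector-CM replicate 3. The 80 members between 3 and 5 FPKM included 15 higher and 1 lower at the unadjusted threshold (18.8% and 1.25%), with a median log2 fold change of 0.06. The 58 between 5 and 10 FPKM included 7 higher and 3 lower (12.1% and 5.17%), and the 22 of at least 10 FPKM 1 higher and 3 lower (4.55% and 13.6%), with medians of 0.03 and -0.002. Other annotated genes ran the same way over these levels, with 16.9%, 15.6% and 9.76% higher and 8.92%, 12.5% and 17.1% lower.

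Replicate spread differed widely among members. ZNF589, a KRAB gene, had the smallest spread within groups, an SD of 0.0170 on the log2 CPM scale, at 24.2, 24.3 and 24.0 CPM in Vector-CM and 26.3, 25.5 and 25.8 CPM in FGFBP1-CM. Its groups did not overlap, and its log2 fold change of 0.10 had an adjusted p of 0.484 in edgeR. ZNF678 had the largest spread, an SD of 0.382, at 32.6, 24.5 and 32.8 CPM against 21.0, 32.1 and 40.7 CPM. Its groups overlapped throughout. At the level that bounds the family, ZNF304 and ZNF710 lay just inside at a mean of 3.01 FPKM each, and ZNF614 and ZNF226 just outside at 2.98 FPKM each.

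KRAB genes carried most of the higher calls. Of 78 KRAB members 14 were higher and 1 was lower at an unadjusted p under 0.05 (17.9% and 1.28%), and of 82 members without the box 9 were higher and 6 lower (11.0% and 7.32%). The medians were 0.05 and 0.03 on the log2 scale. Over all tested genes 11.1% were higher and 10.7% lower at that threshold. On chromosome 19, 9 of 43 KRAB members were higher and 0 lower (20.9%, median 0.09), and elsewhere 5 of 35 were higher and 1 lower (14.3% and 2.86%, median 0.04). Of the 9 SCAN members 1 was higher, ZNF197, and 1 lower, ZNF496. By finger patterns, 13 of the 80 members with 10 to 35 patterns were higher and 0 lower (16.2% and 0.0%). Of the 47 with 5 to 9, 7 were higher and 2 lower (14.9% and 4.26%). Of the 33 with 0 to 4, 3 were higher and 5 lower (9.09% and 15.2%). The Spearman correlation of log2 fold change with the number of patterns was 0.21 across the 160 members, which are not independent and share the same 6 libraries. KRAB members were also lower in level than the others (median 4.46 against 6.10 FPKM) and in GC content (42.6% against 46.1%). The differences between these groups were not tested.

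**Figure D3:**
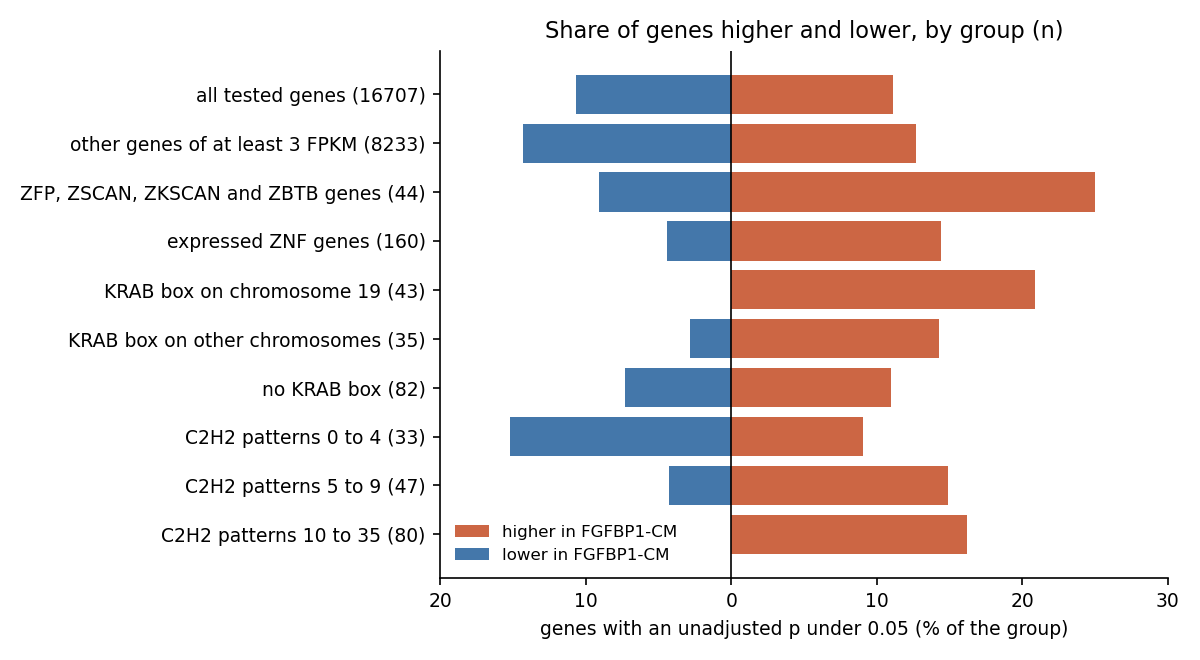
Percent of genes with an unadjusted p under 0.05 (edgeR), to the right where higher and to the left where lower in FGFBP1-CM, with the number of genes per group in brackets. KRAB members on chromosome 19 have 20.9% higher and none lower, while all tested genes have 11.1% and 10.7%.

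Runs of members on chromosome 19, with at most 500 kb from each member to the next, held genes of both directions. The run at chr19:51571298-53580269 held 9 members, 8 of them KRAB genes. Of these, 3 were higher at the unadjusted threshold (ZNF761, ZNF880 and ZNF160), with 6 log2 fold changes above 0 and 3 below. The run of 8 at chr19:8806170-9675086 had 2 higher (ZNF266 and ZNF561) and 7 above 0. The 14 members at chr19:57191500-58418327, the longest run, had 1 higher (ZNF304), 9 above 0 and 5 below. The 3 members at chr19:55605405-56121280 (ZNF865, ZNF581 and ZNF787), none with a KRAB box, went the other way, with 1 lower (ZNF581), 1 above 0, 2 below and a median of -0.06. The remaining 3 runs on this chromosome, of 7, 6 and 3 members, had 6, 5 and 2 above 0. Over all tested genes 11.1% were higher and 10.7% lower at the unadjusted threshold, and 50.7% were above 0. Near-identical KRAB paralogs in such clusters can share reads, and how the counting treated reads with more than 1 match is not given in the sources used here.

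Members outside the KRAB set with known roles gave both directions. Of 14 listed genes of RNA, ribosome and protein turnover, 11 were members. At an unadjusted p under 0.05, 2 were higher and 1 lower (18.2% and 9.09%, against 11.1% and 10.7% of all tested genes). The median log2 fold change of the 11 was -0.01. ZNF326, which couples splicing to RNA polymerase II elongation in the DBIRD complex, was at 54.8, 48.8 and 53.2 CPM in Vector-CM and 63.9, 57.0 and 64.4 CPM in FGFBP1-CM. Its groups did not overlap, and the log2 fold change was 0.24 (adjusted p = 0.107, edgeR). ZNF598, the ubiquitin ligase that senses collided ribosomes, had -0.16, ZNF207, a kinetochore and microtubule protein, -0.09, and ZNF638, an RNA-binding protein, 0.13, all with an unadjusted p above 0.05.

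Of 34 listed transcription and chromatin regulators without a KRAB box, 23 were members, with a median of 0.01. ZNF292 and ZNF644 were higher and ZNF217 and ZNF592 lower at the unadjusted threshold (8.7% each way, against 11.1% and 10.7% of all tested genes). ZNF644, a partner of the histone methyltransferases EHMT1 and EHMT2, stood at 0.23 on the log2 scale (adjusted p = 0.188, edgeR) with overlapping groups. ZNF687 and ZNF532, which share a complex with ZNF592, had 0.09 and -0.08. The promoter factor ZNF143 had -0.21 at an unadjusted p of 0.0570 and its groups overlapped. Of 10 listed KRAB genes with a known target, 3 were members, and none was past the unadjusted threshold. These were ZNF91, which represses SVA retrotransposons (-0.05), ZNF274, which brings SETDB1 to ZNF gene clusters (0.19), and ZNF445, which maintains genomic imprints (-0.13).

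The repressor pathway that KRAB proteins recruit was measured in the same libraries. Of 39 listed names, 38 were in the table and 36 were tested, and 0 passed the adjusted threshold in edgeR. DESeq2 called 4 (TASOR, LRIF1 and SUV39H2 higher, DNMT3B lower) of the 36, out of 616 calls over all 16707 tested genes. Of these 36, limma on log2(FPKM + 1) called 0. At an unadjusted p under 0.05, 8 were higher and 4 lower (22.2% and 11.1%, against 11.1% and 10.7% of all tested genes), and the median log2 fold change was -0.04. In 7 of the 36 all FGFBP1-CM libraries lay above all Vector-CM libraries, and in 9 all lay below. Over all tested genes these shares were 12.8% and 13.2%. In the core of the pathway the log2 fold changes were small. TRIM28 was at 155, 163 and 156 CPM in Vector-CM and 172, 158 and 159 CPM in FGFBP1-CM, a log2 fold change of 0.04 (SE 0.0630). SETDB1 had -0.13, its cofactor ATF7IP -0.004, and the HP1 genes CBX1, CBX3 and CBX5 had -0.10, -0.08 and -0.07, each with an adjusted p of 0.358 or more in edgeR. In CBX1 and CBX5 all FGFBP1-CM libraries lay below all Vector-CM libraries. ATRX, with 4 to 8 counts per library, and ATF7IP2, with 2 to 11, were under the filter on low counts.

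The 3 genes of the HUSH complex, which silences transposable elements with SETDB1, were each higher at the unadjusted threshold. TASOR was at 98.1, 80.8 and 84.8 CPM in Vector-CM and 129, 118 and 113 CPM in FGFBP1-CM, without overlap. Its log2 fold change was 0.45 (SE 0.0816; adjusted p = 0.0557, edgeR), close to the threshold without passing it. MPHOSPH8 had 0.28 and PPHLN1, whose groups overlapped, 0.19, with adjusted p of 0.0958 and 0.199 in edgeR. LRIF1, an HP1-binding protein, was at 7.98, 7.45 and 8.09 CPM against 14.5, 10.2 and 10.6 CPM (0.59; adjusted p = 0.0680, edgeR), and the histone methyltransferase gene SUV39H2 had 0.40. SMARCAD1, TRIM24 and HDAC2 had 0.25, 0.22 and 0.17. On the other side stood DNMT3B, a de novo DNA methyltransferase, at 48.8, 42.0 and 40.4 CPM in Vector-CM and 23.5, 33.1 and 31.9 CPM in FGFBP1-CM. Its log2 fold change was -0.57 (SE 0.118; adjusted p = 0.0568, edgeR), and MTA1, RBBP4 and MBD2 had -0.23, -0.17 and -0.16. These 3 belong to the NuRD complex, as does HDAC2, which was higher, and its other listed genes lay between -0.14 (RBBP7) and 0.16 (MBD3) with an unadjusted p above 0.05. After the correction for GC content and length described below, TASOR was at 0.38, LRIF1 at 0.52 and DNMT3B at -0.57 on the log2 scale. Their unadjusted p were then 0.000252, 0.0021 and 0.000234 in edgeR. In that fit 2 of the 36 genes passed the adjusted threshold, TASOR and DNMT3B, which had the lowest p. With that correction PPHLN1 was at 0.12, HDAC2 at 0.09 and MTA1 at -0.18, with unadjusted p of 0.154, 0.253 and 0.0515 in edgeR, so these 3 were no longer past the unadjusted threshold. Past it only with the correction were RBBP7 (-0.19), HDAC1 (-0.14) and CBX3 (-0.15), lower, and MBD3 (0.22), higher. Their unadjusted p were 0.0119, 0.0306, 0.0308 and 0.0308 in edgeR.

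**Figure D4:**
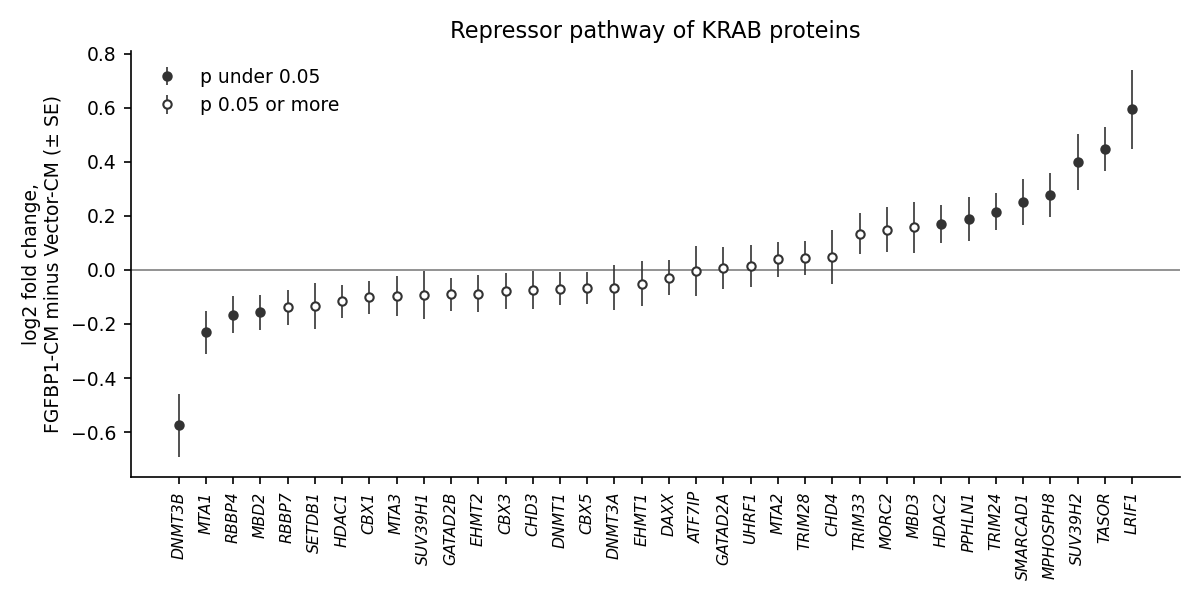
Log2 fold change (FGFBP1-CM minus Vector-CM, edgeR, bars of 1 SE) of the 36 tested genes of the KRAB repressor pathway, in order. Filled points have an unadjusted p under 0.05, from DNMT3B at -0.57 to LRIF1 at 0.59, and TRIM28, at 0.04, lies near 0.

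GC content moved with the difference between the groups. The members' transcripts had a median GC content of 43.5%, against 47.7% over all tested genes. Among the 38 members under 40% GC, 8 were higher and 0 lower at the unadjusted threshold (21.1%, median 0.11), and among all tested genes of that GC content 19.2% were higher and 4.03% lower (median 0.06). Among the 43 members at 50% GC or more, 2 were higher and 5 lower (4.65% and 11.6%), against 5.80% and 15.8% of tested genes. The Spearman correlation of log2 fold change with GC content was -0.26 over the 160 members and -0.21 over the 16401 tested genes with a value, where genes share libraries and are not independent. Then the trend on GC content and length was removed in a fit over all tested genes, which by itself brings their correlation close to 0. After this correction it was -0.02 over the tested genes and -0.01 over the members. With that correction 17 members were higher and 13 lower (10.6% and 8.12%, against 9.43% and 11.8% of tested genes), and the median was 0.02 against -0.01 over all tested genes. The KRAB members of chromosome 19 then had 7 higher and 0 lower, those of other chromosomes 3 higher and 3 lower, and the members without a KRAB box 7 higher and 10 lower. The part of GC content in the difference was not tested.

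**Figure D5:**
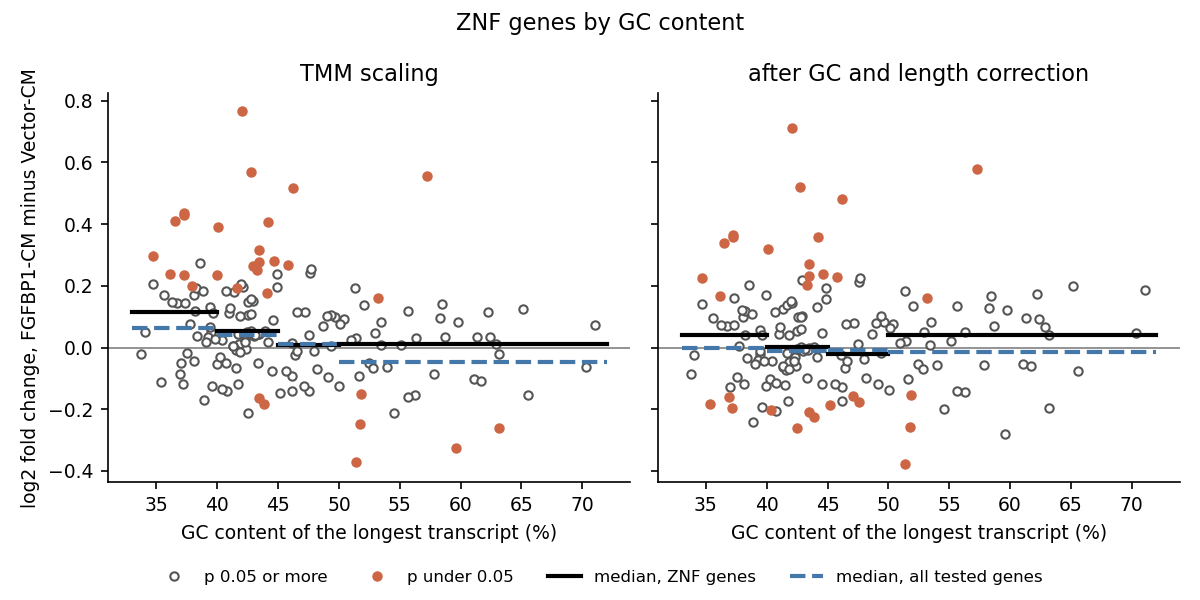
Log2 fold change of the 160 members against the GC content (%) of the longest transcript, with TMM scaling (left) and after the GC and length correction (right). Solid lines are medians of the members and dashed lines medians of all tested genes in 4 ranges of GC content, and the members under 40% GC have a median of 0.11 before and 0.04 after the correction.

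Other expressed zinc finger genes were compared on the same scale. Of 44 tested genes named ZFP, ZSCAN, ZKSCAN or ZBTB with a mean of at least 3 FPKM, 11 were higher and 4 lower at an unadjusted p under 0.05 (25% and 9.09%), with a median log2 fold change of 0.04. The 8233 other tested and annotated genes of at least 3 FPKM had 12.7% higher and 14.3% lower, with a median of -0.002. Within narrower ranges of level, as given above, those other genes also had a larger share higher than lower from 3 to 10 FPKM, and the reverse at 10 FPKM or more, where 22 of the 160 members lie. The difference between the sets was not tested. Over the libraries, the median deviation of the 160 members from their mean over all 6 was 0.003, -0.049 and -0.025 on the log2 CPM scale in Vector-CM and 0.034, 0.004 and 0.029 in FGFBP1-CM, each by replicate. The lowest FGFBP1-CM value lay just above the highest Vector-CM value.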

How the data were processed

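RNA of 6 libraries (3 Vector-CM, 3 FGFBP1-CM, grouped by the sample labels) was sequenced. Per the submitters' processing notes and methods, the authors aligned reads with HISAT2 2.0.5 and counted them with featureCounts 1.5.0-p3, and deposited raw counts and FPKM per gene. FPKM chose the members and the deposited counts were tested. The notes name hg18, the table carries Ensembl identifiers without coordinates, and strandedness is not given in the sources used here, so reads of overlapping genes cannot be told apart. Coordinates are from GENCODE 29 (GRCh38).

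Counts were tested with edgeR 4.0.16 (R 4.3.3; filterByExpr, TMM, quasi-likelihood F-test, no block, two-sided) over 16707 genes with Benjamini-Hochberg adjustment. Each SE given is the absolute log2 fold change divided by the square root of the F statistic. An exact permutation test of 3 against 3 libraries cannot go below 0.1. Alternatives used limma 3.58.1, DESeq2 1.42.0 and the fits listed below. The fit was tested on simulated data. In the GC and length correction, a loess curve with a span of 0.3 was subtracted from each library, and 98.2% of tested genes had both values.

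KRAB and SCAN boxes were scored against consensus sequences, and fingers counted as cysteines 2 to 4 residues apart, 12 residues, and histidines 3 to 5 apart (or a closing cysteine), in translations of GENCODE coding transcripts, since RefSeq proteins, which the design named, were not used here. Named members were those past the adjusted threshold, the 8 highest and 8 lowest by log2 fold change with an unadjusted p under 0.05 and no overlap between groups (6 met this at the lower end), the 5 most abundant, those next to the FPKM threshold and those of largest and smallest spread. Members of the role lists were also named. The members and lists were chosen with earlier results of these data known.

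The labels do not say that replicate numbers pair the libraries, and the main fit treats them as unpaired. Pairs of replicates of a group differed by 2.82 to 10.3 chi-square units per gene, above sampling noise, so all 6 were kept.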

Additional observations from a re-analysis of the deposited data

How the results depend on the processing

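The count of members past the adjusted threshold, 1 in the reported fit, was 13 with no filter on low counts, 9 under DESeq2, and 0 with a mean of at least 1 CPM and in limma on log2(FPKM + 1) or log2(FPKM + 0.1), and 0 to 9 with 1 library left out (9 without FGFBP1-CM replicate 2, 6 without replicate 3, 0 without any 1 Vector-CM library). Over all tested genes it ranged from 1 to 1382 against 20. The count of members higher at an unadjusted p under 0.05 stayed within 1.5 times of 23 and was 17 to 32 with 1 library left out. The count lower, 7, was 2 with library size only, 3 under DESeq2 and in each limma fit, 13 with the GC and length correction, with and without the replicate block, and 2 to 11 with 1 library left out. The median log2 fold change of the members, 0.0434, was 0.0772 with library size only, 0.0648 and 0.0772 in the limma fits with a pseudocount of 1 and 0.1, 0.0180 with the GC and length correction (0.0174 with the block), 0.111 with a minimum of 1 FPKM, and 0.0353 to 0.0709 with 1 library left out. The 0 genes of the KRAB repressor pathway past the adjusted threshold became 5 with no filter, 4 under DESeq2, 2 with the GC and length correction, 1 with RLE scaling, 1 with the replicate block, with and without that correction, and 0 to 4 with 1 library left out. The cause was not tested.

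With the replicate block 1 member passed, as without it, and 25 were higher and 8 lower at the unadjusted threshold, with 90 genes past over all tested genes. Samples of the same number correlated in their deviations at -0.114, -0.0230 and 0.146 over 15033 genes. Across the groups, samples of different numbers correlated at -0.210 to 0.188. The labels do not say that a number marks a shared culture or day, so the numbers are not read as pairs.

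Of the log2 fold changes of the 21 named members over 16 alternatives, 297 kept their direction and side of the threshold, 25 passed where they had not, 6 no longer passed and 8 changed sign. The 6 are ZNF292, at 0.41 with a mean of at least 1 CPM (adjusted p 0.0632), 0.38 and 0.44 in the limma fits (0.185 and 0.176) and 0.36 to 0.46 with 1 Vector-CM library left out; over all alternatives its adjusted p ran from 1.47e-05 to 0.242. ZNF664 was 0.0218 with library size only, 0.0202 and 0.0205 in the limma fits and -0.0260 to 0.0144 with 1 library left out, highest without FGFBP1-CM replicate 2. ZNF678 was -0.0233 with the GC and length correction, -0.0485 with the block added, and -0.186 to 0.278 with 1 library left out, below 0 without Vector-CM replicate 2 (-0.0708) or FGFBP1-CM replicate 3.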

Other observations

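ZNF genes under the level of 3 FPKM were higher in FGFBP1-CM more often than the expressed members. Of the 328 genes, 289 passed the filter on low counts, and genes that passed only through the group where they are high had to differ, so the counts below describe the tested genes alone. Of the 289, 93 were higher and 3 lower at an unadjusted p under 0.05 (32.2% and 1.04%, against 11.1% and 10.7% of all tested genes). None passed the adjusted threshold in edgeR. DESeq2 called 19 of the 289, all higher, out of 616 calls over all 16707 tested genes. Of the same 289, limma on log2(FPKM + 1) called 0. Their median log2 fold change was 0.23, or 0.18 after the GC and length correction, with 75 higher and 6 lower. In 88 of the 289 (30.4%) all FGFBP1-CM libraries lay above all Vector-CM libraries, against 12.8% of all tested genes. In 7 (2.42%) all lay below, against 13.2%. By level, the 111 genes under 1 FPKM had a median of 0.31 with 34 higher and 0 lower, and the 178 between 1 and 3 FPKM a median of 0.20 with 59 higher and 3 lower. Among other annotated genes 7.56% were higher and 5.50% lower under 1 FPKM, and 13.9% and 8.04% between 1 and 3 FPKM. The difference between these sets was not tested.

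Exons of 69 of the 160 expressed members overlapped those of another gene in GENCODE 29, and in 44 of these the gene with the largest overlap lay on the opposite strand, so with strandedness not known their counts may hold reads of the other gene.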
